A study of Mus musculus with 26 samples.

Results

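The miRNA miR-129 is made from 2 hairpin precursors, and the entries for both, mmu-mir-129-1 and mmu-mir-129-2 (below mir-129-1 and mir-129-2), were followed here in mice after an acute swim stress, in the hippocampus split into a dorsal (dHC) and a ventral (vHC) part. They were chosen by name as 2 of the 1054 miRNA entries of a small RNA count table, and both were among the 463 entries with enough counts to test. The table held 26 libraries: 8 of vHC and 6 of dHC from control mice that stayed in the homecage, and 6 of vHC and 6 of dHC from mice that swam for 6 min in water of 18 °C and were dissected 45 mins after the swim began. All were C57BL/6J males of 2 to 3 months with tissue from both hemispheres, and the labels give no transgene or drug for any group. The labels sort the libraries into 3 blocks, named by date, that hold 10, 8 and 8 libraries with every group in each. The comparison of swim with control asks which miRNAs respond early to acute stress.

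A miRNA is cut from one or both arms of a hairpin, and it pairs with mRNAs mainly through its seed, bases 2 to 8, which lowers their translation or stability. In neurons, miR-129-5p is known for a form of homeostatic plasticity, the adjustment by which neurons weaken their excitatory synapses after a long rise in activity. It represses mRNAs such as Atp2b4, a calcium pump, and Dcx, a microtubule binding protein, and it was also found to repress the potassium channel mRNA Kcna1. This is background, and none of these mRNAs was measured in the small RNA table.

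The precursors share most of their mature sequence. The 5p arm is the same in both hairpins, and it is printed with its seed in capitals as RefSeq gives it for GRCm38.p6.
miR-129-5p: cUUUUUGCggucugggcuugc
The 3p arms differ at 1 of 22 bases, which is in capitals in the next 2 lines (C20U, counted from 1 at the 5′ end, with the base of miR-129-2-3p first). The upper line is the mature miR-129-2-3p and the lower line is the stretch of the mir-129-1 hairpin most like it.
miR-129-2-3p: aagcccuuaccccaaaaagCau
mir-129-1 hairpin stretch: aagcccuuaccccaaaaagUau
The whole hairpins are printed with both of these arms in capitals, since the parts in lower case are where the precursors diverge.
mir-129-1 hairpin: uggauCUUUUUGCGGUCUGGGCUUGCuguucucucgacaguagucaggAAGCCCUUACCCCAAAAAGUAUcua
mir-129-2 hairpin: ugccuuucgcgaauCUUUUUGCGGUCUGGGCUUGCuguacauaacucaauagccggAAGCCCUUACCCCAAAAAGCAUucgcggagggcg
Over a global alignment of 94 columns the hairpins were identical at 64 (68.1%). The first 19 bases of the 3p arm are shared, so a sequence that ends before base 20 matches both. The seeds of miR-129-5p (UUUUUGC) and miR-129-2-3p (AGCCCUU) occurred in none of the other mature miRNAs among the 1679 names of the RefSeq table. That search leaves out the 3p arm of mir-129-1, for which the RefSeq table gives no mature miRNA. The stretch of the mir-129-1 hairpin printed above has the same seed, AGCCCUU, so that seed is not unique to mir-129-2.

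The precursors lie on different chromosomes. Mir129-1 spans 73 bases at chr6:29022619-29022691 on the plus strand (GRCm38), within an exon of the long noncoding RNA gene Gm3294 in GENCODE vM21, and the nearest protein coding gene, Lep, which encodes the hormone leptin, is 37.5 kb away. Mir129-2 spans 90 bases at chr2:94241364-94241453 on the minus strand, within an intron of the long noncoding RNA gene Mir670hg, with the protein coding gene Ttc17 at 59.3 kb. The 65 bases of Mir129b lie within Mir129-2 on the opposite strand. The entry mir-129b had between 0 and 3 counts in a library and was at 0 in 15 of 26.

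Before the levels, 1 library needs naming. Swim dHC library 6 stood apart from its group in miRNAs at large: its median absolute log2 deviation from the group median over the 463 entries was 0.49, the highest of the 26, and 93 entries deviated by more than 2-fold, 54 above and 39 below. Results that rest on it are given with and without it. Total miRNA counts were between 465387 (control dHC library 24) and 4819724 per library. Of 8 neuronal miRNA entries, 8 were present, and none was at 0 in any group. Their summed level was between 156385 and 328933 CPM (counts per 1000000 miRNA counts) in the 26 libraries.

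Both miR-129 entries were well measured. Their mean levels were 2010.1 CPM for mir-129-1 and 2067 CPM for mir-129-2 after TMM normalization, ranks 92 and 90 of 463, and together they held 0.412% of all miRNA counts. Levels are relative to the miRNA counts of a library and come from bulk tissue, in which fewer cells of a type and less RNA per cell cannot be told apart.

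In control vHC (n = 8), mmu-mir-129-1 ranged from 1586 to 2471 CPM with a median of 1859. In swim vHC (n = 6) its lowest, median and highest levels were 1445, 1709.7 and 2088 CPM. Of the 6 swim libraries 3 lay inside the control range and 3 below it, among them the lowest of the 26 levels. In control dHC (n = 6) the levels were 1705, 1971 and 2261 CPM. In swim dHC (n = 6) they were 1738, 1989 and 4701 CPM, and the highest belongs to library 6, while the other 5 libraries ended at 2265. All 4 groups overlapped. The mean ± SD was 1929 ± 339 in control vHC, 1733 ± 250.1 in swim vHC, 1972 ± 178 in control dHC and 2433 ± 1124 in swim dHC, or 1979 ± 190.2 without library 6.

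For mir-129-2 the picture was the same at a slightly higher level. The mean ± SD of mmu-mir-129-2 was 1998 ± 364 CPM in control vHC, 1782 ± 251 in swim vHC, 2014 ± 186 in control dHC and 2496 ± 1169 in swim dHC. Without library 6 (4858 CPM), swim dHC was at 2023 ± 185 CPM. In order of the mean, both entries ran from swim vHC over control vHC and control dHC to swim dHC, and no neighbours in that order differed beyond their spread in the tests below.

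**Figure D1:**
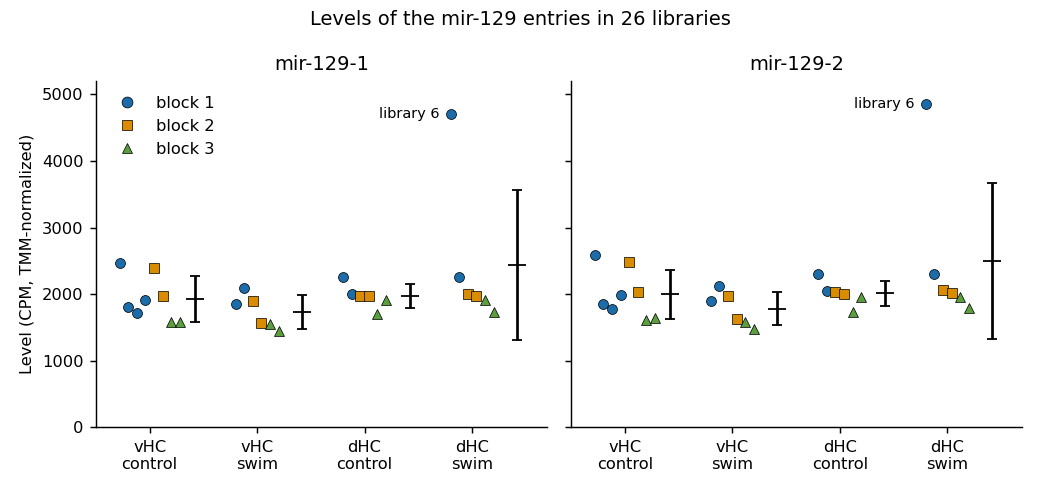
Level of mir-129-1 (left) and mir-129-2 (right) in CPM (TMM-normalized) in each of 26 libraries by group. Each point is a library, its shape and colour give the block, and the bars beside the points are mean ± SD. Swim dHC library 6 is the highest point in both panels, at 4701 and 4858 CPM, and block 3 holds most of the lowest points.

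Library 6 was the one library far from the rest for miR-129. The pair held 0.886% of its miRNA counts (95% exact binomial interval 0.871 to 0.900, counting error only), against at most 0.487% in any other library. Its mir-129-2 level deviated from the group median by 1.27 on the log2 scale. Among the signed deviations in that library, counted down from the highest, this was rank 31 of 463. Leaving it out reduced the within-group SD of log2 CPM from 0.31 to 0.19 for mir-129-1 and from 0.31 to 0.20 for mir-129-2. Those smaller values lay at the 9.29th and 9.50th percentile of all entries tested, whose median was 0.36. With library 6 the percentiles were 34.6 and 35.4. Within groups, miR-129 thus varied little between the other 25 libraries, though the entries compared were not matched by level.

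**Figure D2:**
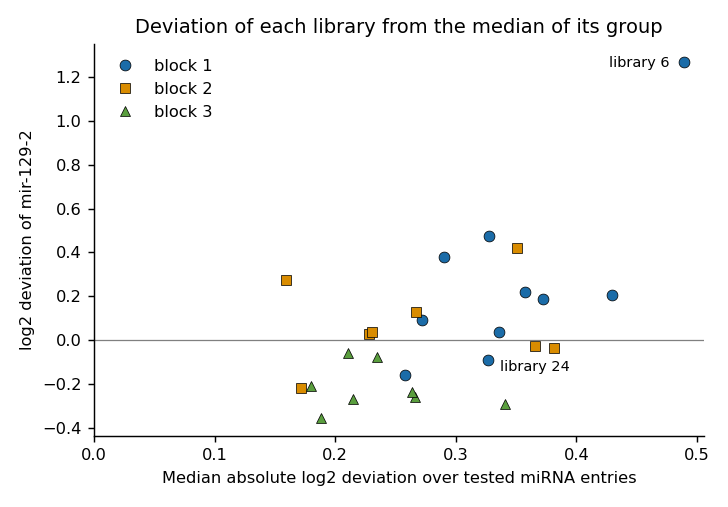
Deviation of each of 26 libraries from the median of its own group: over all 463 tested miRNA entries (horizontal axis, median absolute log2 deviation) and for mir-129-2 (vertical axis, log2). Library 6 has the highest value on both axes, 0.49 and 1.27, and the shallowest library, 24, lies close to 0 for mir-129-2.

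Swim stress changed neither entry past the threshold. In edgeR's quasi-likelihood test of stress and its interaction with region together, the p was 0.153 for mir-129-1 and 0.144 for mir-129-2, with an adjusted p of 0.719 for both (Benjamini-Hochberg over 463 entries, threshold 0.05). No miRNA passed in that test (0 of 463, 0%), 17 (3.67%) had an unadjusted p under 0.05, and DESeq2 called 0, with 16 under 0.05 unadjusted. The same test called 0 entries (0%) in vHC, in dHC and for the interaction, with 35 (7.56%), 17 (3.67%) and 22 (4.75%) under an unadjusted 0.05. DESeq2 called 0 in each of these too, with 39, 18 and 20 unadjusted.

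In vHC, mir-129-1 was lower after swim by a log2 fold change of -0.18 (SE 0.16, 95% CI -0.51 to 0.15, edgeR adjusted p = 0.715). For mir-129-2 the value was -0.19 (SE 0.16, CI -0.52 to 0.14, edgeR adjusted p = 0.697). These intervals leave room for a level between 0.70 and 1.11 times that of control for mir-129-1. Within blocks 1, 2 and 3 the swim minus control differences of mir-129-1 in mean log2 CPM were 0.0080, -0.33 and -0.086, so the difference between the groups came mostly from block 2.

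In dHC, the log2 fold change of mir-129-1 was 0.28 (SE 0.17, CI -0.07 to 0.63, edgeR adjusted p = 0.982), and that of mir-129-2 was 0.29 (SE 0.17, edgeR adjusted p = 0.982). Without library 6 the estimates were 0.019 (SE 0.11, CI -0.22 to 0.25) and 0.020 (SE 0.12). The within-block differences of mir-129-1 show the same thing: 0.62 in block 1, which holds library 6, and 0.013 and 0.012 in blocks 2 and 3.

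The swim effects of dHC and vHC differed by 0.46 for mir-129-1 (SE 0.23, CI -0.01 to 0.94) and by 0.48 for mir-129-2 (SE 0.23), both with an edgeR adjusted p of 0.952. The unadjusted edgeR p was 0.0577 and 0.0528. They ranked 27 and 24 by p among the 463 entries. Without library 6 the differences were 0.18 (SE 0.15) and 0.19 (SE 0.16), with an edgeR adjusted p of 0.973.

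**Figure D3:**
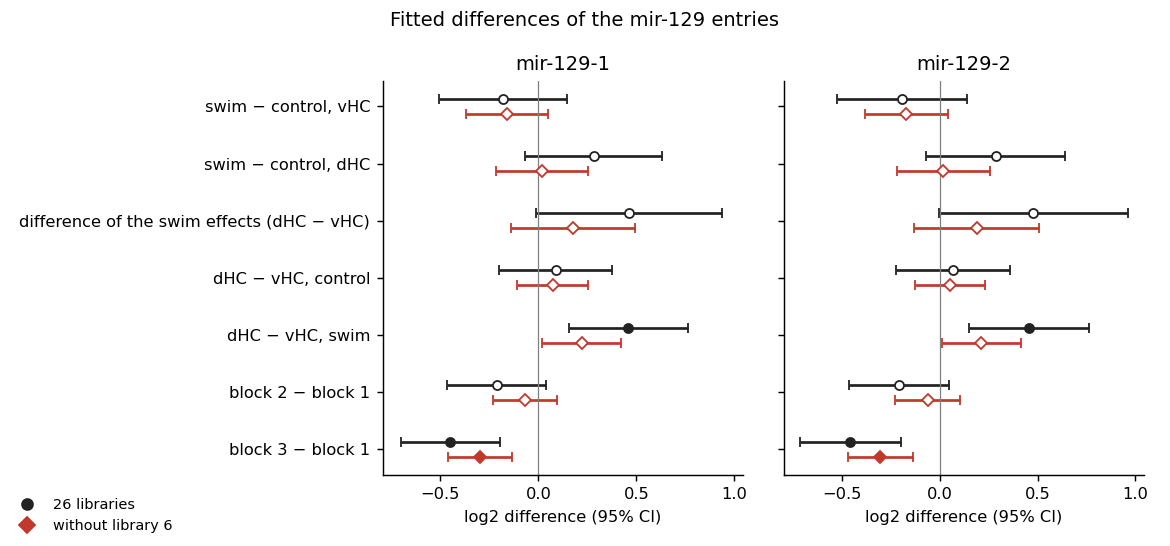
Fitted log2 differences (horizontal axis) of mir-129-1 and mir-129-2 with 95% confidence intervals for 7 comparisons, from all 26 libraries (black circles) and without swim dHC library 6 (red diamonds). Filled symbols have an adjusted p under 0.05: with all libraries these are dHC against vHC after swim (0.46 for both) and block 3 against block 1, and without library 6 block 3 against block 1 alone.

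The regions were compared in a fit with block as covariate. In control mice, the dHC minus vHC difference was 0.09 (SE 0.14, CI -0.20 to 0.38) for mir-129-1 and 0.07 (SE 0.14) for mir-129-2, with edgeR adjusted p-values of 0.662 and 0.748. Without control vHC library 17 the differences were 0.18 and 0.16 (edgeR adjusted p = 0.377 and 0.429). Of all entries, 104 (22.5%) differed between the regions, 36 higher (7.78%) and 68 lower (14.7%) in dHC, and neither miR-129 entry was among them. With DESeq2's size factors in edgeR, that split was 66 higher and 64 lower.

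After swim, both entries were higher in dHC. The difference was 0.46 for mir-129-1 (SE 0.15, CI 0.15 to 0.76, a fold of 1.37, edgeR adjusted p = 0.0286) and 0.46 for mir-129-2 (SE 0.15, edgeR adjusted p = 0.0314). In this comparison 94 of 463 entries were called (20.3%), 35 of them higher (7.56%) and 59 lower (12.7%) in dHC. Without library 6 the difference was 0.22 (SE 0.097, edgeR adjusted p = 0.126) for mir-129-1 and 0.21 (SE 0.098, edgeR adjusted p = 0.137) for mir-129-2, with 91 of 470 entries called (19.4%). Both calls were also lost without swim vHC library 5 (edgeR adjusted p = 0.0657 and 0.0713) or 21 (0.0600 and 0.0636), and that of mir-129-2 without swim vHC library 27 or 29 (0.0503 for each).

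The direction after swim was the same in every block, while in control mice it was not. The dHC minus vHC difference in mean log2 CPM of mir-129-1 after swim was 0.73, 0.20 and 0.29 in blocks 1, 2 and 3, and that of mir-129-2 was 0.74, 0.18 and 0.29. In control mice these differences were 0.12, -0.14 and 0.19 for mir-129-1 and 0.10, -0.15 and 0.17 for mir-129-2. Within each block both swim dHC libraries lay above both swim vHC libraries. An exact two-sided permutation test within blocks, chosen after the data were seen, gave p = 0.0093 for each entry. This is the smallest that 216 arrangements allow, and it was 0.037 after adjustment over 4 comparisons rather than over the 463 entries. Exchanging labels over all 12 libraries gave an exact permutation p of 0.0541, or 0.216 adjusted. The swim minus control difference was not larger in dHC than in vHC past the threshold, as the interaction test shows, so the region difference is not shown to depend on stress.

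Markers of other cell types also varied between these groups. The 3 listed oligodendrocyte entries (mir-219a-1, mir-219a-2 and mir-338) were all present. They summed to 3638 to 4714 CPM in swim vHC and 4578 to 6941 CPM in swim dHC, with the highest in library 6. The 7 choroid plexus entries summed to 2459 to 2948 CPM in swim vHC and 1759 to 3933 CPM in swim dHC, with the lowest in library 6. Neuronal entries summed to 181283 to 228120 CPM in swim vHC and 156385 to 254936 CPM in swim dHC, where library 6 was the highest. The neuronal median was nevertheless lower in swim dHC (184698) than in swim vHC (202502). The oligodendrocyte median was higher in dHC after swim (5958 against 3964 in vHC). It was also higher in dHC in control mice (6027 against 4150), where neither miR-129 entry was called. The part of cell makeup in the miR-129 result was not tested.

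The levels also differed between blocks. The mean level of mir-129-1 was 2307 ± 874 CPM over the 10 libraries of block 1, or 2041 ± 251 without library 6. It was 1969 ± 221 over the 8 of block 2 and 1679.95 ± 172 over the 8 of block 3. The edgeR test over the 3 blocks gave an adjusted p of 0.0118 for each entry, where 246 of 463 entries passed (53.1%). Block 3 lay below block 1 by a log2 difference of -0.45 for both (SE 0.12, edgeR adjusted p = 0.0042), where 241 entries were called (52.1%). Without library 6 that difference was -0.30 (SE 0.079 and 0.080, edgeR adjusted p = 0.0031 and 0.0030). Block 2 against block 1 was at -0.21 for both entries and did not pass (edgeR adjusted p = 0.151 and 0.166), where 243 entries did (52.5%), and without library 6 it was at -0.069 and -0.061. Every group is in every block, so block and stress are not fully confounded. In vHC they are not balanced, since block 1 holds 4 of the 8 control libraries and 2 of the 6 swim libraries. The stress fit used surrogate variables in place of block.

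The ratio of the entries holds the little that the deposited counts say about the single precursors. The 5p arm and the first 19 bases of the 3p arm are shared. Only sequences that reach base 20 of the 3p arm, or lie outside both arms, can tell the entries apart. In 26 of 26 libraries mir-129-2 had more counts than mir-129-1, and in 26 of 26 the difference was a whole number (tolerance 1e-06), although neither count was whole in 17. The excess of mir-129-2 was between 12 and 277 counts in a library, or 0.649 to 2.29% of the pair. How the counting program divided sequences that match both hairpins is not given in the sources used here. If it divided them equally, the excess is a lower limit on the counts that matched mir-129-2 alone. The levels of single precursors are therefore uncertain, and across libraries the log2 CPM of the entries correlated with r = 0.999, in points that share sequences as well as libraries.

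The mean ratio of mir-129-2 to mir-129-1 was 1.035 ± 0.0082 (SD) in control vHC, 1.028 ± 0.0089 in swim vHC, 1.021 ± 0.0065 in control dHC and 1.025 ± 0.0074 in swim dHC. In control mice the log2 ratio was lower in dHC by 0.0187, from 0.0491 to 0.0304 (exact two-sided permutation p = 0.0093, 0.0373 adjusted over 4 comparisons; 0.0296 adjusted with labels exchanged within block). The groups overlapped, and the within-block differences were -0.021, -0.015 and -0.016. This test uses the 8 control vHC and 6 control dHC libraries alone, so leaving out a swim library could not change its unadjusted p. The call was lost in 10 of the 26 cases with 1 library left out, each time a control library. These were control vHC libraries 1, 9, 13, 17 and 31 and control dHC libraries 8, 14, 24, 26 and 32. The largest adjusted exact permutation p was 0.0932, without control dHC library 26. After swim, the region difference was -0.0051 (exact permutation p = 0.452). Stress gave -0.0091 in vHC (exact permutation p = 0.186) and 0.0045 in dHC (exact permutation p = 0.437).

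**Figure D4:**
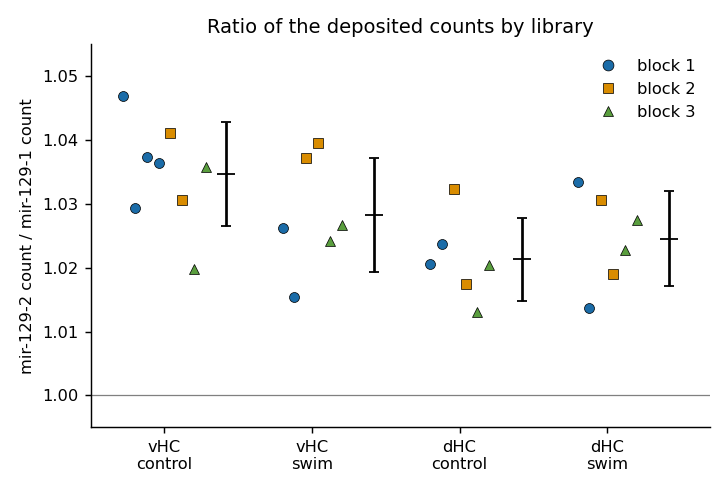
Ratio of the deposited mir-129-2 count to the mir-129-1 count in each of 26 libraries by group, with mean ± SD beside the points, and shape and colour for the block. The vertical axis does not start at 0, and the grey line marks equal counts. All points lie above 1, between 1.013 and 1.047, and the control dHC mean (1.021) is below that of control vHC (1.035). The hairpins share most of their mature sequence, so the ratio is not that of the precursor levels.

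Stress was also read in the other miRNAs known for synaptic plasticity. A list of 14 further entries was drawn up, and all were tested. It holds mir-92a-1 and mir-92a-2, which repress the glutamate receptor subunit GluA1, and the 3 precursors of the neuronal miR-124. It also holds mir-134, which represses the kinase Limk1 in dendrites, mir-485, which represses the synaptic vesicle protein SV2A, mir-132, which is induced by CREB, and mir-138, mir-146a, mir-186 and mir-218. None of the 14 was called for stress in either region, together or for the interaction (0 of 463 entries, 0%, in each edgeR test), and none had an unadjusted p under 0.05. Their median log2 fold change was -0.0047 in vHC, where that of all entries was -0.030, and 0.010 in dHC, where that of all entries was 0.017. Without library 6 both medians of the list changed sign, to 0.013 in vHC and -0.049 in dHC. The vHC medians with and without library 6 were the values of miR-124, whose 3 entries had nearly equal mean levels (14226 to 14228 CPM). Because mir-92a, mir-138 and mir-218 also have more than 1 entry, the 14 are not separate observations.

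The smallest p of the list in vHC was that of mir-132, with a log2 fold change of -0.19 (SE 0.093, edgeR adjusted p = 0.633). In dHC and in the joint test it was that of mir-186, with 0.23 in dHC (SE 0.12, edgeR adjusted p = 0.982; 0.088 with SE 0.092 without library 6). Its level was 4841 CPM in library 6 against 2164 to 2994 in the other 5 swim dHC libraries. For the interaction it was that of mir-92a-1, at 0.36 (SE 0.20, edgeR adjusted p = 0.952; 0.24 with SE 0.20 without library 6). Without library 6, mir-485 and mir-132 in vHC had an unadjusted p of 0.0179 and 0.0347, with edgeR adjusted values of 0.470 and 0.499.

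Between the regions, in the block fit on all 26 libraries, the share of the list that was called was near or below that of all entries. Under some alternatives it was above that share. In control mice 1 of 14 was called, against 22.5% of all entries (3 to 6 of 14 under the alternatives given in this paragraph and the closing section): mir-485 was lower in dHC by a log2 difference of -0.83 (SE 0.13, edgeR adjusted p = 1.58e-05), with 1414 ± 281 CPM in control vHC and 842 ± 149.9 CPM in control dHC. After swim 3 of 14 were called, against 20.3% of all entries. There mir-485 was lower by -0.64 (SE 0.13), and mir-92a-1 and mir-92a-2 were higher, by 0.48 (SE 0.12) and 0.53 (SE 0.13). The 92a entries, chosen for mention after their values were seen, thus lay beside miR-129 in size and direction, and their calls held without library 6 (edgeR adjusted p = 0.0127 and 0.0072). Without library 6, 3 of 14 were called in control mice, with mir-134 and mir-186 added (25.3% of all entries), and 4 after swim, with mir-134 added (19.4% of all entries). The median of the list was 0.22 in control and 0.17 after swim, against 0.0055 and -0.00015 for all entries, and 0.22 and 0.057 without library 6. As fixed examples, mir-134 was at -0.34 (SE 0.16, edgeR adjusted p = 0.110) and mir-218-2 at -0.03 (SE 0.11) in control mice.

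**Figure D5:**
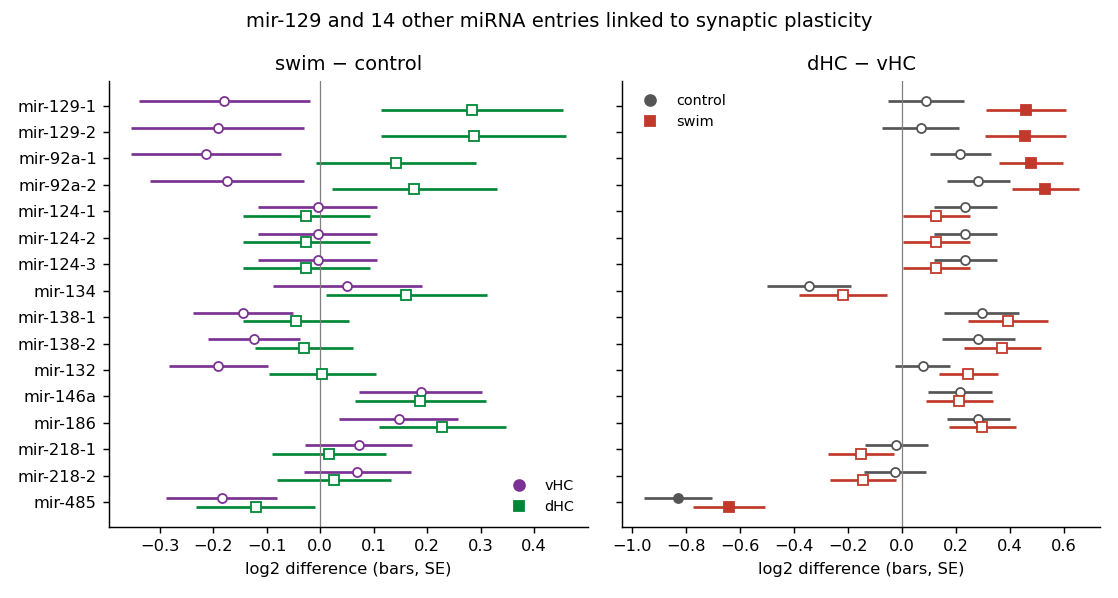
Log2 differences of the miR-129 entries and 14 other miRNA entries known for synaptic plasticity, swim minus control in each region (left) and dHC minus vHC in control and in swim mice (right). Bars are standard errors and filled symbols have an adjusted p under 0.05. No symbol is filled on the left, and on the right those of mir-485 are filled in both, and those of mir-129 and mir-92a after swim.

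The entries whose log2 CPM ran most like that of the miR-129 pair over the 26 libraries were mir-99b (Pearson r = 0.799), mir-92a-1 (0.764), mir-92a-2 (0.754), mir-193b (0.733) and mir-365-2 (0.701). These are descriptions of libraries that share depth, block and tissue. Without library 6, r was 0.693 for mir-99b, 0.771 for mir-92a-1, 0.696 for mir-92a-2, 0.472 for mir-193b and 0.417 for mir-365-2, and the second highest was that of mir-25 (0.765). In library 6, mir-193b was at 73.3 CPM against 12.2 to 23.5 in the other swim dHC libraries, and mir-365-2 at 267 against 77.9 to 116. The likeness of these last 2 therefore rested largely on that library, while that of mir-92a-1 did not.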

How the data were processed

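Small RNA libraries of 26 samples (NEXTflex v3) were sequenced by the authors. They removed adapters (cutadapt), counted reads alike in sequence and molecular tag once, and assigned them to entries using Sports 1.0. The submitters' processing notes name GRCm38. The deposited values are expected counts per entry, not normalized, and 0 columns were left unmatched. Since whole counts had been assumed, these expected counts were rounded to whole numbers for edgeR, sva and DESeq2, while the ratio used them as deposited.

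Entries were filtered with filterByExpr (minimum count 10, minimum total 15) and scaled by TMM over the miRNA entries. Software was R 4.3.3, edgeR 4.0.16, sva 3.50.0, DESeq2 1.42.0, Python 3.11.15 and matplotlib 3.10.9 (figures). Stress was fitted with region and 2 surrogate variables on all 26 libraries, and region with block. Log2 CPM used a pseudocount of 0.5. The groups share no library number, and the labels do not say whether dHC and vHC libraries came from the same mice, so p-values measure the spread between libraries. Scripts were tested on simulated data.

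The miR-129 entries and the lists were chosen with earlier results of these data known. Named were the miR-129 entries, list entries past the threshold for stress or for region in control mice (or else that with the smallest p), 4 fixed examples and the 5 entries most like the pair. Of the other marker lists, immune, endothelial and red blood cell entries (4 of 5, 1 of 2 and 4 of 6 present) summed to 959 to 2793, 3925 to 11315 and 646 to 997 CPM. Alternatives changed normalization, filter, tool, covariates and libraries. Those chosen after seeing the data were unrounded counts, robust dispersions, libraries 6 and 24 left out together, the permutation of log2 CPM, and the list without library 6.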

Additional observations from a re-analysis of the deposited data

Results flagged for a closer look

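In the swim dHC group of 6 libraries, the level of mir-129-1 in library 6 was 4701 CPM, and its gap to the next library was 0.822 of the range of the group, past Dixon's 95% critical value. The level of mir-129-2 there was 4858 CPM, with a gap of 0.834 of the range. These were the values past that limit among 16 checks over groups and quantities, and chance alone flags about 1 in 20 groups. The entries share most of their sequences, so they are not separate observations.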

How the results depend on the processing

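With 1 library left out, stress in vHC ranged from -0.35 to -0.087 (mir-129-1) and -0.36 to -0.097 (mir-129-2), the region difference in control from 0.066 to 0.18 and 0.047 to 0.16, and that after swim from 0.22 to 0.49 and 0.21 to 0.49, with the losses named above. The region difference of the log2 ratio in control mice ranged from -0.022 to -0.016. The block calls held in each case. The region difference after swim did not pass without libraries 6 and 24 (0.23 and 0.22), with 2 surrogate variables and region in the null model (0.34 and 0.29), for mir-129-2 with an intercept alone in it (0.41), with no covariate (0.49 and 0.49) and with labels permuted over all libraries (0.41 and 0.40). Values that changed sign were these: stress in dHC without libraries 6 and 24 (-0.0068 and -0.0048), and region in control with region in the null model (-0.13 and -0.19, where the median of all entries was -0.24). The cause was not tested. With DESeq2's size factors, 5 of 14 list entries were called for region in control and 5 after swim (130 and 97 of all 463). With surrogate variables, 6 were called in control (16.8% of all) and 3 after swim (12.5% of all). Without library 6, 3 were called in control (25.3% of all). No paired analysis was possible because the labels name no mouse. The region and interaction tests thus ignore any pairing of dHC and vHC libraries within a mouse.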
